A study of Mus musculus with 12 samples.

Results

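The main effect of aspartame (ASP) on the liver was measured by setting the 6 arrays of mice given aspartame against the 6 arrays of mice without it, which are all 12 arrays of the series. The arrays with aspartame were the 3 of the ASP + TFA diet and the 3 of the ASP + MSG + TFA diet, and those without were the 3 of the TFA diet and the 3 of the MSG + TFA diet, so that monosodium glutamate (MSG) was present on 3 arrays of each side. The animals were male C57Bl/6J mice, killed at 20 weeks after an overnight fast. Liver RNA of the 15 mice of a diet was pooled in sets of 5 mice, with 1 pool on each array. Aspartame was given at 0.25 g/L and MSG at 0.75 g/L in the drinking water. Every group, those without aspartame included, ate the same trans fat (TFA) diet, with 20% of its weight as partially hydrogenated shortening and 8.68% as trans fat, and no chow-fed liver is among the 12 arrays. Exposure began with the mothers, which received the diets for 3 weeks before mating, and the offspring were weaned onto the same diet at 4 weeks. The comparison asks what aspartame does to liver transcripts on a trans fat background whether or not MSG is present.

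Aspartame is a methyl ester of the dipeptide of aspartate and phenylalanine. In the gut it is cleaved to aspartate, phenylalanine and methanol, and the liver receives these through the portal vein. Hepatocytes turn phenylalanine into tyrosine and break it down further, pass the nitrogen of aspartate into the urea cycle or into asparagine and nucleotides, and oxidise methanol through formaldehyde to formate. Genes of these routes, of amino acid transport, of lipid handling and of drug metabolism are therefore described beside the fit over all genes.

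The platform was the Affymetrix Mouse Gene 1.0 ST array. The deposited value is a linear intensity, background-adjusted with GCRMA and quantile-normalized by the authors. Levels are given as log2 intensity, where 1 unit is a doubling, and a gene's level is the mean over its probe sets, with a median of 8 probe sets for each of 20422 genes. A difference is the log2 level with aspartame minus that without, averaged over the pairs of diets without MSG and with MSG. Differences were tested with limma and Benjamini-Hochberg adjustment over all 20422 genes, with 0.05 on the adjusted p as the threshold. Array medians lay between 6.91 and 6.96 log2 intensity. Hepatocyte markers, 16 of 18 listed genes such as albumin and transthyretin, averaged 13.5 to 13.6 log2 intensity on every array. Transcripts of neighbouring tissue were also present. The mean level of 19 pancreatic acinar markers was 8.55 on ASP + TFA pool 3, 7.74 on ASP + MSG + TFA pool 1 and 8.00 on ASP + MSG + TFA pool 2, against 6.07 to 7.28 on the other 9 arrays. The mean of 21 skeletal muscle markers was 5.95 to 6.45 on the 6 aspartame arrays, against 6.55 to 6.96 on the 3 TFA arrays and 5.96 to 6.38 on the 3 MSG + TFA arrays. In whole tissue, fewer cells of a type and less RNA per cell cannot be told apart.

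**Figure D1:**
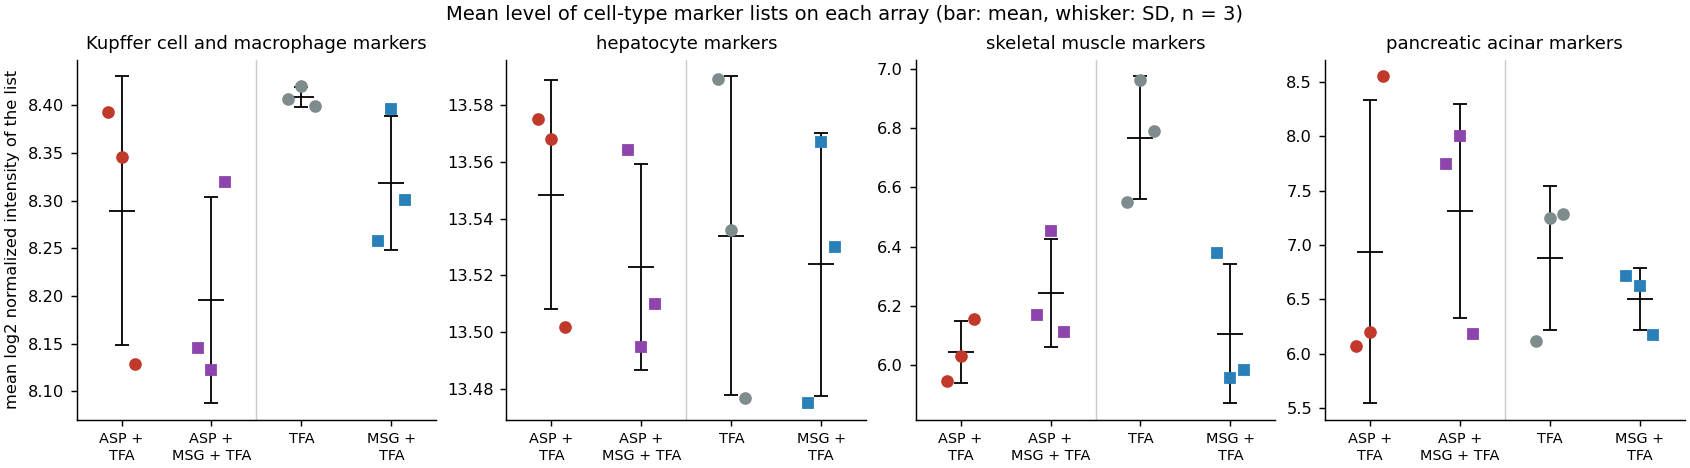
Mean log2 intensity of the pancreatic acinar, skeletal muscle, Kupffer cell and macrophage, and hepatocyte marker lists on each array, by diet, with 1 point per pool, a bar at the mean and whiskers of 1 SD (n = 3). The 3 highest acinar points belong to diets with aspartame, the 3 highest muscle points to TFA, and the hepatocyte mean hardly moves.

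No gene passed the adjusted threshold for aspartame in either direction, 0 of 20422 genes (0%). At an unadjusted p under 0.05 there were 1268 genes with a higher level with aspartame (6.21% of all genes) and 595 with a lower one (2.91%), together 1863 (9.12%). That split depended on the scaling, since centring each array on its median gave 868 higher and 866 lower, a further quantile normalization 969 and 870, and cyclic loess 980 and 862. At an adjusted p under 0.10 there were 2 genes (0.00979%), the keratin-associated protein gene Krtap31-1 at a log2 difference of 0.51 and the gene model Gm8109 at -0.62, both with a limma adjusted p of 0.0730. Krtap31-1 was read by 1 probe set at a dim mean level of 6.42. Its difference was 0.11 with MSG and 0.91 without MSG (interaction, limma adjusted p = 0.103). All 6 aspartame arrays lay above all 6 arrays without aspartame in 61 genes (0.299%) and below them in 16 genes (0.0783%). Most differences were small. The median absolute difference was 0.0618 log2 units beside a median standard error of 0.0738, only 40 genes (0.196%) were at least 1.4-fold higher and 22 (0.108%) at least 1.4-fold lower, and the extremes were the P450 gene Cyp2b9 at 1.10 and the muscle actin gene Acta1 at -0.82.

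The higher levels lay mainly among dim genes. When genes were divided by mean level into 5 bins of equal size, the median difference was 0.0431 and 0.0404 in the dimmest bins, 0.0208 in the middle one, and -0.0185 and -0.0170 in the brightest bins. The dimmest bin had 336 higher genes and 45 lower ones at an unadjusted p under 0.05, and the brightest bin had 63 and 139. On arrays without aspartame the median level of the dimmest bin was 5.55 to 5.627 log2 intensity. It was 5.561, 5.617 and 5.724 in ASP + TFA pools and 5.614, 5.655 and 5.621 in ASP + MSG + TFA pools. Only ASP + TFA pool 3 and ASP + MSG + TFA pool 2 thus lay above the range without aspartame. Among the 8647 genes read by at least 3 probe sets and at or above the median level of 6.76 log2 intensity, here called well measured, 203 (2.35%) were higher and 282 (3.26%) lower. Non-overlap of the 6 against 6 arrays was seen in 12 higher (0.139%) and 8 lower (0.0925%) of them. Of the 12 higher genes with the smallest p over all levels, taken by rule without gene models or receptors of smell and pheromones, 0 were well measured.

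The average over both pairs of diets was also not one pattern seen in each. Without MSG, ASP + TFA against TFA, 58 genes passed (0.284%), with 1361 higher (6.66%) and 708 lower (3.47%) before adjustment, at p under 0.05. With MSG, ASP + MSG + TFA against MSG + TFA, only the growth regulator Myc passed (1 gene, 0.0049%), with 745 higher (3.65%) and 508 lower (2.49%) unadjusted. These pairs share no array. Across the 20422 genes the difference without MSG and that with MSG had a Pearson r of 0.0456 and a Spearman rho of 0.0674, and across well measured genes r was -0.0314. Genes of a liver are not independent of each other, so these coefficients describe the 12 arrays. The sign was the same in 10637 genes (52.1%). Without ASP + TFA pool 3 r was -0.155 and without ASP + TFA pool 1 it was 0.161, so single pools moved it to either side of 0. Arrays without overlap within both pairs were seen for 134 higher genes (0.656%) and 47 lower genes (0.23%). The difference itself differed between the pairs in 14 genes by the interaction term, 7 in each direction (0.0343% each), and in 1510 (7.39%) at an unadjusted p under 0.05.

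**Figure D2:**
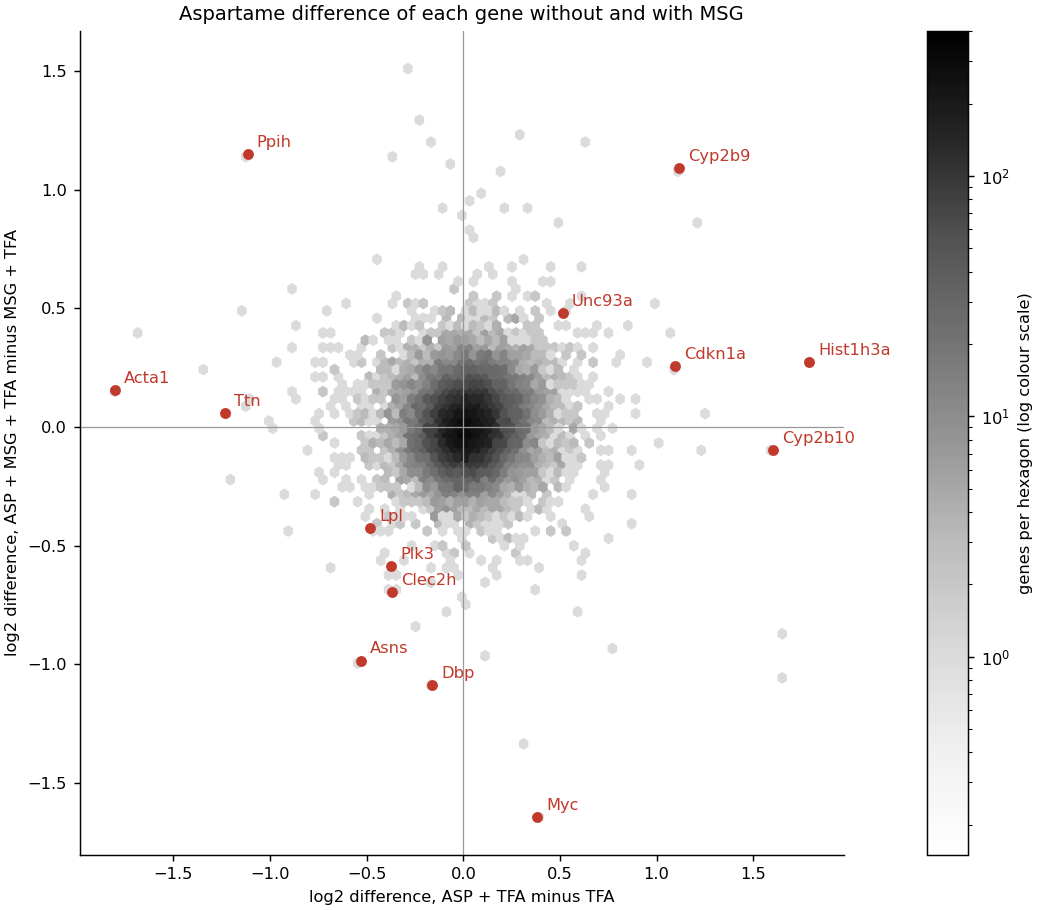
Log2 difference of each gene for ASP + TFA minus TFA (horizontal axis) against ASP + MSG + TFA minus MSG + TFA (vertical axis), as hexagons shaded by the number of genes, with named genes in red. The cloud is round around 0, with Cyp2b9 high on both axes, Asns and Lpl low on both, and Acta1, Ppih and Myc far out on one or opposite sides.

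Among the routes that take up aspartame's products, the lowest values were those of an asparagine-making enzyme and a carrier of aspartate. Of 23 measured genes of aspartate, glutamate and alanine metabolism, 0 passed after adjustment. With an unadjusted p under 0.05, 0 were higher and 2 lower, beside 6.21% and 2.91% of all genes. The list had 8 positive and 15 negative genes, where 54.9% of all genes were positive. Its median difference was -0.00975 beside 0.0114 for all genes. The 2 lower genes were Asns and Slc25a12. Asns, asparagine synthetase, makes asparagine with aspartate as the acceptor and glutamine as the nitrogen donor, and it is a textbook target of the amino acid response, in which the factor ATF4 binds a C/EBP-ATF response element near the gene's start. That start is shown because Asns had the largest difference of the aspartate genes. The promoter comes from RefSeq on build GRCm38.p6, chr6:7693160-7693459, minus strand, 250 bases before to 50 after the start, with the letters of the response element in capitals.
Asns promoter: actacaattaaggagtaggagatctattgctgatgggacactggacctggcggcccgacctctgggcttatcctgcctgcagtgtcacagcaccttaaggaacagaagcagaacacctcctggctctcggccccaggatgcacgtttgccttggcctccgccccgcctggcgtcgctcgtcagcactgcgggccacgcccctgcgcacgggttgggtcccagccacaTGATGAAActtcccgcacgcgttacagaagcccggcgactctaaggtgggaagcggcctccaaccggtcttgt
The motif searched was TGATGNAA on both strands. It matched once in this window, beginning 23 bases before the start. The same letters occur in 1304 of 32851 mouse promoters of this length (3.97%). Of the related genes, Got1, cytosolic aspartate aminotransferase, had 1 match on the opposite strand and Slc25a12 had 0 matches. A match describes letters only.

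Asns had log2 levels of 7.15, 7.26 and 6.29 in ASP + TFA pools and 6.58, 7.21 and 6.04 in ASP + MSG + TFA pools, against 7.54, 7.26 and 7.50 in TFA pools and 7.64, 8.00 and 7.15 in MSG + TFA pools. The 3 lowest pools had aspartame, while the other 3 aspartame pools overlapped the lowest pools without it. The means were 6.76 ± 0.524 with aspartame and 7.52 ± 0.299 without (SD, n = 6 each), a log2 difference of -0.76 (SE 0.205, 95% interval -1.20 to -0.32, 0.592-fold, limma adjusted p = 0.292), so it did not pass. The difference was -0.98 with MSG and -0.53 without MSG, and these were not distinguished by the interaction term (limma adjusted p = 0.868). All 12 probe sets of Asns had a negative difference, 10 of them at an unadjusted p under 0.05. Leaving out single pools gave -0.91 to -0.60.

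Slc25a12, also called aralar, is a mitochondrial carrier that exports aspartate in exchange for glutamate. Its log2 levels were 8.73, 8.45 and 8.22 in ASP + TFA pools and 8.34, 8.18 and 8.32 in ASP + MSG + TFA pools, against 8.69, 8.61 and 8.65 in TFA pools and 8.64, 8.80 and 8.65 in MSG + TFA pools. Apart from ASP + TFA pool 1, every aspartame pool was below every pool without aspartame. The means were 8.37 ± 0.200 and 8.68 ± 0.0679 (SD, n = 6 each), a log2 difference of -0.30 (SE 0.0789, limma adjusted p = 0.282), with 18 of 19 probe sets negative. Got1 stood at -0.19 with an unadjusted p of 0.220 from the limma fit. Without the 3 acinar-rich arrays the log2 difference was -0.89 for Asns and -0.22 for Slc25a12.

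The other product routes lay near the background. Of 13 measured genes of phenylalanine and tyrosine breakdown, 0 were higher and 1 lower with an unadjusted p under 0.05, with a median difference of 0.0173. The lower one was the kynurenine aminotransferase gene Aadat, at a log2 difference of -0.18 (unadjusted p = 0.0243, limma). The urea cycle, 11 genes, had 0 in either direction and a median of 0.0206. The 27 genes that handle methanol, formaldehyde and formate also had 0 in either direction, with a median of 0.0172 and single values from -0.151 to 0.203. Its highest members were Gldc, the glycine decarboxylase that yields one-carbon units, at 0.20, and Bhmt, which methylates homocysteine from betaine, at 0.18. Tryptophan breakdown, 12 genes, had a median of -0.00202, with Aadat again the 1 lower gene. The median of all genes, 0.0114, lay among these, and of all genes 6.21% were higher and 2.91% lower.

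**Figure D3:**
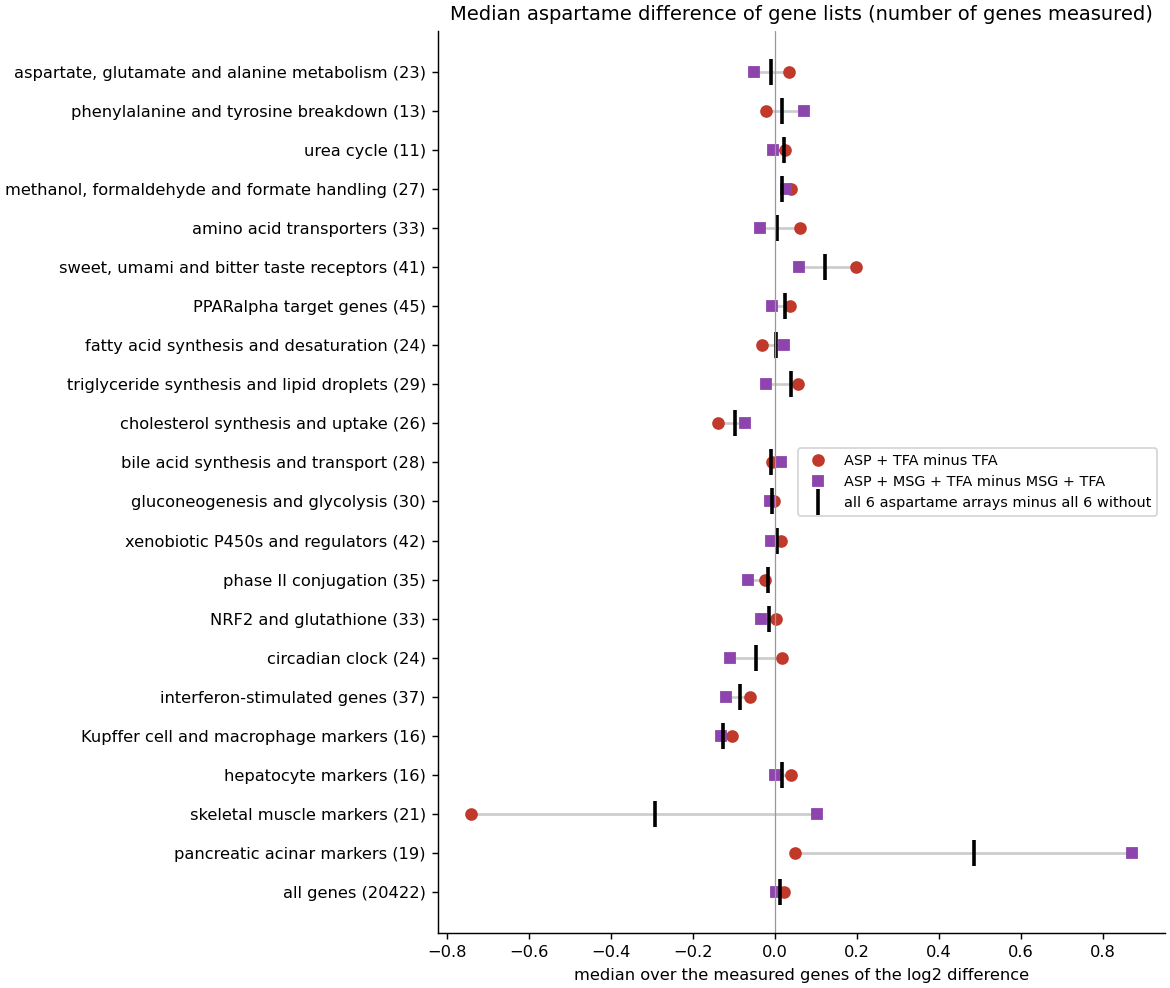
Median log2 difference over the measured genes of each list, for ASP + TFA minus TFA (red circles), ASP + MSG + TFA minus MSG + TFA (purple squares) and all 6 aspartame arrays minus all 6 without (black bars), with the number of measured genes in brackets. Product routes of aspartame lie near 0, macrophage, interferon and cholesterol lists lie below 0 in both pairs, and the muscle and acinar lists differ between the pairs.

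Amino acid transporters, 33 genes, had a median of 0.0054. With an unadjusted p under 0.05, 2 were higher and 0 lower, near the 6.21% and 2.91% of all genes. The 2 were Slc38a1, a sodium-coupled glutamine transporter, at a log2 difference of 0.22, and Slc6a20a, which carries proline, at 0.24. Neither was well measured or past the adjusted threshold, and without the 3 acinar-rich arrays each was at 0.13. Tested one by one, 1 of 212138 probe sets passed (0.000471%), beside 15634 (7.37%) at an unadjusted p under 0.05. With a 1.4-fold difference required as well, unadjusted, 4286 were higher (2.02%) and 3579 lower (1.69%). The probe set that passed belongs to another transporter of this list, Slc6a18, which takes up neutral amino acids mainly in the kidney. The call was lost in most refits, with 0 probe sets past the threshold under the replicate block and without any single pool other than MSG + TFA pool 3, whose removal gave 2. At that probe set the log2 levels were 7.30, 7.29 and 7.61 in ASP + TFA pools and 7.32, 7.11 and 7.12 in ASP + MSG + TFA pools, against 5.65, 5.37 and 5.43 in TFA pools and 6.39, 6.37 and 6.57 in MSG + TFA pools. All 6 aspartame pools were above all pools without it, and TFA pools were the lowest. The means were 7.29 ± 0.181 with aspartame and 5.96 ± 0.539 without (SD, n = 6 each), a log2 difference of 1.33 (SE 0.114, limma adjusted p = 0.0167 over the probe sets), 0.74 with MSG and 1.92 without MSG. The other 15 probe sets of Slc6a18 did not follow. They ranged from -0.315 to 0.356, 9 positive and 6 negative, 0 of them at an unadjusted p under 0.05, and the mean over all 16 was 0.11 higher (unadjusted p = 0.0600, limma). The call thus rests on 1 of 16 probe sets.

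**Figure D4:**
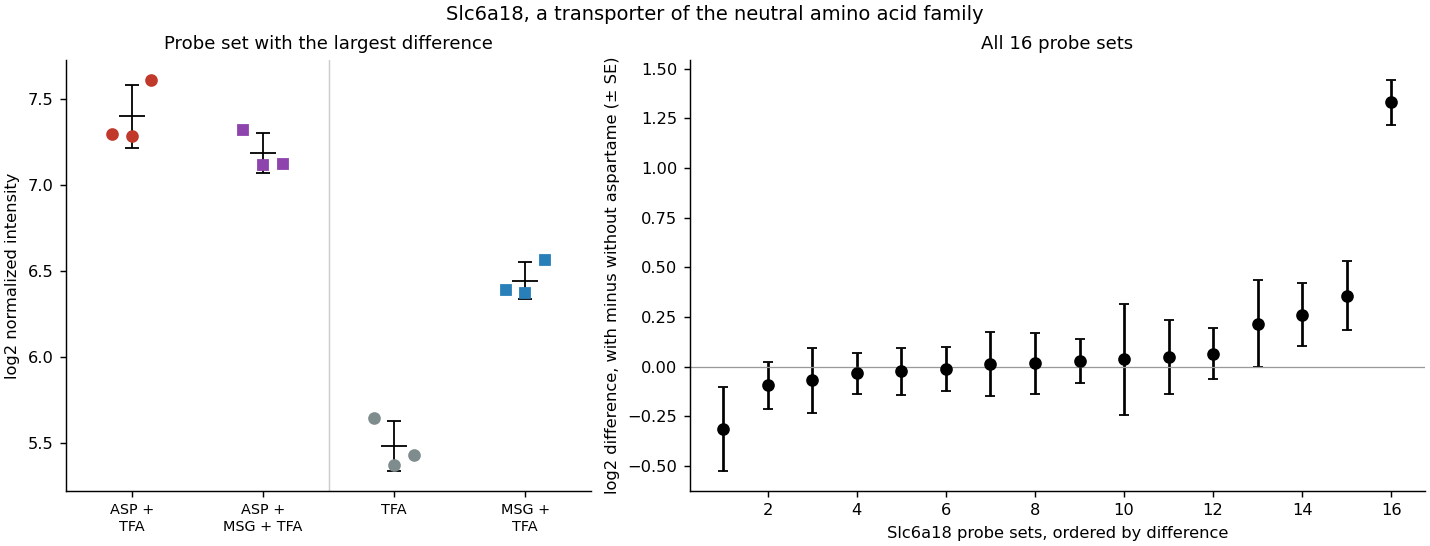
Log2 intensity of the called Slc6a18 probe set on each array by diet, with mean and SD of 3 pools (left), and the log2 difference, aspartame minus no aspartame, of all 16 probe sets ordered by size with the standard error (right). A single probe set stands at 1.33 while the other 15 lie between -0.315 and 0.356.

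Among well measured genes, gene models and unnamed sequences aside, the smallest p in either direction belonged to Lpl, lipoprotein lipase, which releases fatty acids from circulating triglyceride. Its mean level over the 12 arrays, 6.865, was near the lower limit of 6.76 for well measured genes. Its log2 levels were 6.85, 7.01 and 6.46 in ASP + TFA pools and 6.52, 6.54 and 6.45 in ASP + MSG + TFA pools, against 7.16, 7.42 and 7.19 in TFA pools and 6.95, 7.08 and 6.76 in MSG + TFA pools. The aspartame pools were below their own counterparts without overlap both without and with MSG, while across all 12 arrays ASP + TFA pools 1 and 2 overlapped the MSG + TFA pools. The means were 6.64 ± 0.235 and 7.09 ± 0.225 (SD, n = 6 each), a log2 difference of -0.45 (SE 0.0916, 95% interval -0.65 to -0.26, 0.730-fold, limma adjusted p = 0.196), -0.43 with MSG and -0.48 without MSG. Of its 15 probe sets 13 were negative, 7 at an unadjusted p under 0.05. Leaving out single pools gave -0.51 to -0.38, and leaving out the 3 acinar-rich arrays gave -0.40. Lpl did not pass the adjusted threshold in any setting tried, where its adjusted p ranged over 0.0593 to 0.476.

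Lists of lipid handling went both ways, with single genes above 0. Angptl4, a secreted inhibitor of lipoprotein lipase and a PPARα target, was at a log2 difference of 0.21 and Lipg, endothelial lipase, at 0.23. Of 45 PPARα target genes, 6 were higher and 1 lower with an unadjusted p under 0.05, and 26 were positive and 19 negative. Their median was 0.0244, -0.00857 with MSG and 0.0366 without MSG. For comparison with this list and the next, 6.21% of all genes were higher, 2.91% lower and 54.9% positive. The 29 genes of triglyceride synthesis and lipid droplets had 3 higher and 0 lower, 19 positive and 10 negative, and a median of 0.0395, -0.022 with MSG and 0.0545 without MSG. Plin4, a droplet coat protein, was at 0.34, Cidec, which enlarges droplets by fusion, at 0.28, and G0s2, an inhibitor of adipose triglyceride lipase, at 0.24. Levels of Plin4 were 8.29, 8.86 and 9.43 in ASP + TFA pools and 9.23, 9.16 and 8.86 in ASP + MSG + TFA pools, against 8.78, 8.43 and 8.36 in TFA pools and 8.69, 8.83 and 8.70 in MSG + TFA pools. ASP + TFA pool 1 was the lowest of all 12, and without the 3 acinar-rich arrays the log2 difference of Plin4 was 0.08. In that setting Cidec was at 0.17 and Angptl4 at 0.11, while G0s2 was at 0.32 and Lipg at 0.29. Adipocyte markers, 14 genes that include Plin4, Cidec, Aqp7 and Lpl, had a median of 0.0647. Their mean levels were 7.64, 7.83 and 7.93 in ASP + TFA pools and 7.95, 8.02 and 7.95 in ASP + MSG + TFA pools, against 7.77 to 7.86 in the 6 pools without aspartame. There too ASP + TFA pool 1 was the lowest, and 4 aspartame pools were above all pools without it. The defining fat cell hormones of that list, Adipoq and Lep, were each at a log2 difference of -0.01, at dim mean levels of 5.35 for Adipoq and 6.35 for Lep. The part of adipocyte transcripts in the lipid droplet values was not tested further. Aqp7, a glycerol channel, was at 0.24 and Pdk4, a kinase that blocks pyruvate oxidation, at 0.23. The value of Pdk4 was 0.66 with MSG and -0.20 without MSG (interaction, limma adjusted p = 0.184). None of these genes passed after adjustment.

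Cholesterol synthesis and uptake, 26 genes, had 1 higher and 4 lower genes at an unadjusted p under 0.05, with 21 of 26 negative, beside 45.1% of all genes. Its median was -0.097, -0.075 with MSG and -0.139 without MSG. The lower ones included the sterol demethylase gene Cyp51 at a log2 difference of -0.35, Sc4mol, a sterol oxidase now named Msmo1, at -0.37 and Hsd17b7, a reductase of the same pathway, at -0.22. Insig2, which retains the sterol sensor in the endoplasmic reticulum, was at 0.36. Single pools moved the median over -0.180 to -0.00716, the smallest without ASP + TFA pool 3. The list's mean level was 8.95 to 9.07 on the 3 acinar-rich arrays and 9.27 to 9.50 on the other 3 aspartame arrays, against 9.14 to 9.41 without aspartame. TFA pools 2 and 3, with more acinar transcripts than TFA pool 1, were not lower than it. Their acinar means of 7.24 and 7.28 lay below the 7.74 to 8.55 of the acinar-rich arrays, so these pools cannot decide the matter. Without the 3 acinar-rich arrays the median turned to 0.0995, with Cyp51 at -0.15, Sc4mol at -0.07 and Hsd17b7 at -0.07. The part of the acinar transcripts in the cholesterol values was not tested.

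Drug-metabolising enzymes were near 0 as a group but held the gene with the largest difference. The 42 xenobiotic P450s and regulators had 3 higher and 1 lower gene, beside 6.21% and 2.91% of all genes, and a median of 0.00508. The 3 were of the Cyp2b family, whose members oxidise drugs and steroids and of which Cyp2b10 is the textbook target of the receptor CAR. Cyp2b9 had log2 levels of 8.02, 9.45 and 9.72 in ASP + TFA pools and 9.77, 9.70 and 10.96 in ASP + MSG + TFA pools, against 8.04, 7.67 and 8.13 in TFA pools and 8.69, 8.74 and 9.72 in MSG + TFA pools. The groups overlapped through ASP + TFA pool 1, which was as low as the TFA pools, and MSG + TFA pool 3, which was as high as 3 aspartame pools. The means were 9.60 ± 0.942 and 8.50 ± 0.725 (SD, n = 6 each), a log2 difference of 1.10 (SE 0.293, 95% interval 0.47 to 1.73, 2.15-fold, limma adjusted p = 0.285), nearly equal without MSG at 1.11 and with MSG at 1.09. All 7 probe sets were positive, each at an unadjusted p under 0.05.

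Cyp2b10 did not run in parallel with it. Its log2 levels were 10.81, 10.03 and 9.19 in ASP + TFA pools and 8.52, 8.28 and 9.57 in ASP + MSG + TFA pools, against 8.39, 8.45 and 8.39 in TFA pools and 8.23, 8.45 and 9.99 in MSG + TFA pools. All 3 ASP + TFA pools were above all TFA pools, whereas the pools with MSG overlapped, with MSG + TFA pool 3 the highest of them. The log2 difference was 0.75, made of -0.10 with MSG and 1.60 without MSG, an interaction that did not pass after adjustment (unadjusted p = 0.0182, limma adjusted p = 0.563). Cyp2b13, a near copy of Cyp2b9 whose probes may share signal with it, was at 0.27. Phase II conjugation, 35 genes, had 0 higher and 5 lower genes, beside 2.91% of all genes lower, and a median of -0.0173. The glucuronosyltransferase genes among them included Ugt2b38 at a log2 difference of -0.31, Ugt2b37 at -0.28 and Ugt2b35 at -0.19, close copies whose probe sets may read one another. Ugt2b35 had all 6 aspartame pools, 11.688 to 11.979, below all 6 pools without, 11.995 to 12.115. Its difference was -0.34 with MSG and only -0.03 without MSG (interaction, limma adjusted p = 0.420). When the median over its 7 probe sets replaced their mean, the average difference was 0.0242. Gstm1, a glutathione transferase, was at 0.23.

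Macrophage markers leaned below 0, and 0 passed the adjusted test. Of 16 Kupffer cell and macrophage markers 14 were negative, beside 45.1% of all genes. At an unadjusted p under 0.05, 0 were higher and 6 lower, beside 2.91% of all genes lower, and the median was -0.128, -0.133 with MSG and -0.105 without MSG. Lyz2, the lysozyme of macrophages and neutrophils, had log2 levels of 9.94, 9.84 and 9.69 in ASP + TFA pools and 9.68, 9.68 and 9.69 in ASP + MSG + TFA pools, against 9.99, 10.24 and 10.32 in TFA pools and 9.86, 9.99 and 9.94 in MSG + TFA pools. Within each pair of diets the groups did not overlap, and only ASP + TFA pool 1 reached into the range of MSG + TFA pools. The means were 9.76 ± 0.111 and 10.06 ± 0.182 (SD, n = 6 each), a log2 difference of -0.30 (SE 0.0680, limma adjusted p = 0.233). The complement receptor of Kupffer cells Vsig4 was at -0.21, the complement component C1qa at -0.28 and Cd5l, a scavenger-like secreted protein, at -0.20.

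Other myeloid and inflammatory genes among the 12 well measured lower genes with the smallest p were Cd53, a leukocyte tetraspanin, at a log2 difference of -0.39, Cxcl9, an interferon-induced chemokine, at -0.47, and Hmox1, which degrades the haem that macrophages take up, at -0.38. Hmox1 averaged 7.75 ± 0.114 with aspartame and 8.13 ± 0.200 without (SD, n = 6 each; limma adjusted p = 0.273), with all 8 probe sets negative. Cyba, a subunit of the phagocyte oxidase, was at -0.22. Interferon-stimulated genes, 37 in number, had 0 higher and 6 lower genes and 32 negative ones, beside the same 2.91% and 45.1% of all genes, with a median of -0.0854, and included Gbp6 at -0.29 and Oasl2 at -0.19. The mean level of the macrophage markers was 8.12 to 8.15 on the 3 acinar-rich arrays, all of which had aspartame, and 8.32 to 8.39 on the other 3 aspartame arrays, against 8.26 to 8.42 on the 6 arrays without, so only the acinar-rich arrays lay outside the range without aspartame. Without the acinar-rich arrays the median was -0.0227 for the macrophage markers and -0.033 for the interferon-stimulated genes. There Lyz2 was at -0.27 and C1qa at -0.31, while Vsig4 was at -0.08 and Cd5l at -0.10. The part of the acinar transcripts in these values was not tested further. The neutrophil list, 13 genes of which 2 were well measured, had 4 negative genes. It had 2 higher and 0 lower genes, beside 6.21% and 2.91% of all genes. The granule genes Camp at 0.28 and Ngp at 0.24 were the 2 higher ones of the list. Its median was 0.05, close to the 0.0431 and 0.0404 of dim genes, and 0.00476 without the acinar-rich arrays.

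**Figure D5:**
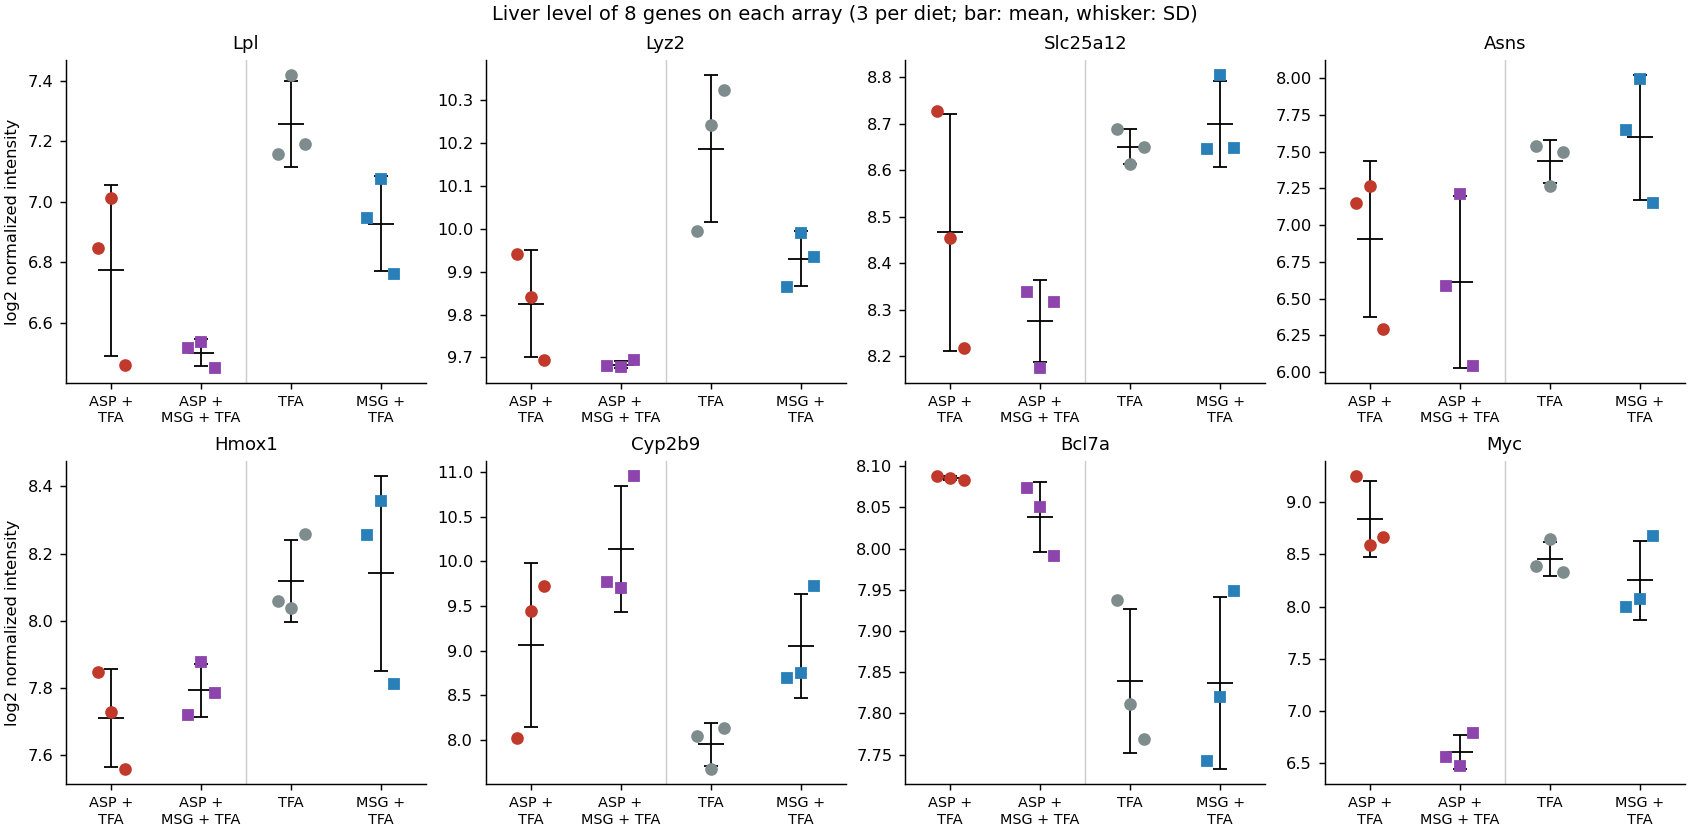
Log2 intensity of named genes on each of the 12 arrays, grouped by diet with aspartame left of its counterpart without, 1 point per pool, a bar at the mean and whiskers of 1 SD (n = 3). The mean of Lpl, Lyz2, Slc25a12, Asns and Hmox1 is lower and that of Cyp2b9 and Bcl7a higher with aspartame in both pairs of diets, and Myc is low only in ASP + MSG + TFA.

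Genes of stress and the cell cycle were mixed. Of 39 immediate early and stress-inducible genes, 2 were higher and 9 lower with an unadjusted p under 0.05, beside 6.21% and 2.91% of all genes. The calls thus leaned to lower levels, while 18 genes were positive and 21 negative, with a median of -0.00338. The lowest was Myc at a log2 difference of -0.63, made of -1.64 with MSG and 0.38 without MSG. Plk3, a kinase of the stress response, was at a log2 difference of -0.48 (limma adjusted p = 0.206), -0.59 with MSG and -0.37 without MSG, and 15 of its 16 probe sets were negative. Btg2, an antiproliferative gene, was at -0.22, and Zfp36, which destabilises inflammatory mRNAs, at 0.22, with all 6 aspartame pools above all pools without. Cdkn1a, the cell cycle inhibitor p21, was at 0.68. Its levels were 7.40, 7.20 and 7.35 in ASP + TFA pools and 6.65, 6.97 and 6.47 in ASP + MSG + TFA pools, against 6.39, 6.00 and 6.27 in TFA pools and 5.83, 6.36 and 7.12 in MSG + TFA pools. MSG + TFA pool 3 was the only pool without aspartame among the aspartame pools.

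The clock list, 24 genes, had 2 higher and 2 lower genes, beside 6.21% and 2.91% of all genes, and a median of -0.0459. Dbp, an output factor of the clock, was at a log2 difference of -0.62, -1.09 with MSG and -0.16 without MSG, with levels of 8.35, 7.83 and 7.45 in ASP + TFA pools and 7.27, 7.01 and 7.63 in ASP + MSG + TFA pools, against 8.46, 7.87 and 7.77 in TFA pools and 8.50, 9.02 and 7.65 in MSG + TFA pools. Arntl, the clock activator BMAL1, ran the other way at 0.39, and so did its relative Npas2 at 0.25, while the repressor Cry2 was at -0.17. Arntl and Dbp were opposed on single pools too, since MSG + TFA pools 1 and 2 had the highest Dbp and the lowest Arntl, 7.09 and 7.00, of all 12 arrays. The hour of killing is not given per pool in the sources used here. Ppp1r3c, which brings a phosphatase to glycogen, was at 0.39.

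MSG + TFA pool 3 stood apart on several of these genes and decided calls. For Insig2 it was at 12.29, the highest of all 12 arrays, against 11.23 and 11.27 in the other MSG + TFA pools. Without this pool 7 genes passed the adjusted threshold, higher for Insig2 at a log2 difference of 0.53, Cdkn1a at 0.85, Acnat2, an acyl-CoA amino acid acyltransferase, at 0.58 and Krtap31-1 at 0.55, and lower for the C-type lectin Clec2h at -0.66, Hnrnpa1l2, a pseudogene of a ribonucleoprotein, at -0.50 and the gene model Gm6140 at -0.42. Acnat2 and Gm6140 are named because this setting called them.

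Most genes without any overlap between the 6 aspartame pools and the 6 others had differences under 1.4-fold. The named exceptions were Unc93a and the protocadherin gene Pcdha6, dim and read by 2 probe sets, at a log2 difference of 0.56 (1.47-fold, limma adjusted p = 0.194). Fam172a was lower in 6 of 6 aspartame pools, 6.83 to 6.94 against 7.06 to 7.13 log2 intensity, a log2 difference of -0.20 (limma adjusted p = 0.273). Bcl7a, a subunit of the SWI/SNF chromatin remodelling complex, had 8.09, 8.09 and 8.08 in ASP + TFA pools and 8.07, 8.05 and 7.99 in ASP + MSG + TFA pools, against 7.94, 7.81 and 7.77 in TFA pools and 7.74, 7.82 and 7.95 in MSG + TFA pools, a log2 difference of 0.22 (SE 0.0569, limma adjusted p = 0.282). Aspartame pools were tightly grouped there. Fam131b was at 0.32, the potassium channel subunit Kcne2 at 0.36 and the T cell cytokine Il2 at 0.29. Among dimmer genes the same held for the milk casein gene Csn3 at 0.42, the mucin gene Muc20 at 0.34 and the secreted phospholipase gene Pla2g2d at 0.31. Unc93a, read by 1 probe set, had 7.99 to 8.43 with aspartame against 7.40 to 7.91 without, a log2 difference of 0.50 (1.41-fold, limma adjusted p = 0.194). It was called, at 0.77 and an adjusted p of 0.00370, once the muscle marker mean of each array was a covariate. The histone gene Hist1h3a, also read by 1 probe set, was at 1.03, made of 0.27 with MSG and 1.79 without MSG (interaction, limma adjusted p = 0.336).

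Taste receptors, through which sweeteners, glutamate and bitter compounds are sensed, had the highest median of all lists apart from the acinar markers. Of 41 sweet, umami and bitter receptor genes 33 were positive, and 7 were higher and 0 lower with an unadjusted p under 0.05. Of all genes 54.9% were positive and 6.21% higher, and the dimmest bins had 336 of 4085 and 403 of 4084 genes higher. The list's median was 0.122, 0.0577 with MSG and 0.196 without MSG. None of the 41 was well measured. The bitter receptor genes Tas2r136, Tas2r144 and Tas2r138, each read by 1 probe set, were at log2 differences of 0.30, 0.29 and 0.21. The median difference of dim genes was above 0, with only ASP + TFA pool 3 and ASP + MSG + TFA pool 2 above the range without aspartame, as given above. Without the 3 acinar-rich arrays the taste list's median was 0.0445. The part of the dim-signal shift in the taste values was not tested.

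Transcripts of muscle and pancreas had the widest list medians. Of the 21 muscle genes, 6 were well measured. At an unadjusted p under 0.05 the list had 0 higher and 12 lower genes, beside 6.21% and 2.91% of all genes. Its median was -0.293, which was 0.101 with MSG and -0.741 without MSG. Titin (Ttn) was at -0.59, the myosin gene Myh1 at -0.50, the troponin gene Tnnc2 at -0.52 and Acta1 at -0.82, and with MSG these differences were 0.0582 for Ttn, 0.00517 for Myh1, 0.10 for Tnnc2 and 0.16 for Acta1 (interaction for Acta1, limma adjusted p = 0.182). The acinar list, 19 genes of which 8 were well measured, had 2 higher genes, beside 6.21% of all genes. Of the 19, 17 were positive, beside 54.9% of all genes. The list's median was 0.484, which was 0.869 with MSG and 0.0489 without MSG and turned to -0.538 without the 3 acinar-rich arrays.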

How the data were processed

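The 12 liver pools were each hybridised to 1 array. In Partek, the authors applied GCRMA and a quantile normalization, and the deposited values are linear intensity values of 241576 probe sets, 14.8 to 68604. They were log2-transformed with nothing added. Of the probe sets, 212138 carried 1 gene symbol, 4672 several and 24766 none, and the last 2 kinds were left out of gene values. Gene values were means over the probe sets of 1 symbol, 2290 genes being read by 1 probe set, and 20369 of 20422 symbols matched a RefSeq gene.

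Aspartame, MSG and their interaction were fitted with limma 3.58.1 (lmFit, eBayes) in R 4.3.3 without a replicate block, the tables being read with the data.table package (version 1.17.8), and the script was tested on simulated data. P-values measure the spread between pools. Lists are described by counts and medians, without a test. Named genes were, per direction, the 12 with the smallest p over all genes and over well measured genes, up to 4 per list and up to 4 for the interaction. The members, the lists (1391 of 1498 entries measured) and the rule were chosen with earlier results of these data known. Alternatives covered scaling, probe set summaries, signal filters, variance models, array weights, a replicate block, single pools, and the arrays with or without MSG only. Marker covariates, cyclic loess, the plain linear model and leaving out the 3 acinar-rich arrays were chosen after seeing the data. Promoters are RefSeq's. Python 3.11.15 with matplotlib 3.10.9 and numpy 2.4.6 made the figures.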

Additional observations from a re-analysis of the deposited data

Results flagged for a closer look

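The aspartame difference differed with MSG in 14 genes by the interaction term of the limma fit. Of these, Myc had an interaction of -2.03 log2 units (adjusted p = 0.0151), with a log2 difference of -1.64 with MSG and 0.38 without MSG. The splicing-associated isomerase gene Ppih, read by 1 probe set, had an interaction of 2.26 (adjusted p = 0.0151), with 1.15 with MSG and -1.11 without MSG, so its average over both was near 0. Csnk2a1-rs2 had an interaction of -0.87, and the bitter receptor gene Tas2r109 one of -0.75, both read by 1 probe set. All 4 calls were lost in some refits. The highest adjusted p was 0.0568 for Myc (without ASP + MSG + TFA pool 2), 0.0543 for Ppih (without TFA pool 1), 0.0806 for Csnk2a1-rs2 and 0.104 for Tas2r109 (both without ASP + MSG + TFA pool 2), and the sign held throughout.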

How the results depend on the processing

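Under the alternatives the count of genes that passed for aspartame was 28 with array weights (15 higher, 13 lower), 21 on the arrays without MSG only, 2 on the arrays with MSG only, 5 without the 3 acinar-rich arrays, 1 with the muscle covariate, and 0 to 7 when single pools were left out, with 7 without MSG + TFA pool 3. It was 2 at an adjusted p under 0.10, 1863 unadjusted, 47 unadjusted with a 1.4-fold difference and 1699 unadjusted in the plain linear model. The other settings gave 0. Array weights were 0.355 for ASP + TFA pool 3, 0.459 for pool 1 and 3.33 for pool 2. The count of interaction genes was 6 with the replicate block and 1 to 21 without single pools, the lowest without ASP + MSG + TFA pool 2 and the highest without ASP + TFA pool 3. Leaving out TFA pool 1 gave 3, TFA pool 2 gave 5, MSG + TFA pool 3 gave 6, ASP + MSG + TFA pool 1 gave 7 and ASP + TFA pool 2 gave 8. Probe sets that passed were 7865 unadjusted with a 1.4-fold difference, 0 with the replicate block and 0 to 2 without single pools, 2 without MSG + TFA pool 3 and 0 without any other pool. Whether replicate numbers pair the pools was not settled. Same-numbered pools had deviations correlated at -0.342 to 0.354 with 4 of 18 pairs over 0.1. Pools with other numbers had -0.305 to 0.281 with 10 of 36 pairs over 0.1. Deviations within a diet of 3 pools depend on each other, so these ranges cannot decide the question. The block left the aspartame count at 0 and gave 6 interaction genes against 14 without it.

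Differences turned sign for Myc (0.38), Pdk4 (-0.20) on arrays without MSG only, for Cyp2b10 (-0.10), Ttn (0.0582), Myh1 (0.00517), Tnnc2 (0.10) and Acta1 (0.16) on arrays with MSG only, for Ugt2b35 with the median over probe sets (0.0242) and for Myh1 with brighter probe sets (0.60). The causes were not tested. Of the alternative values of single genes, 2121 kept direction and side of the threshold, 20 passed it only there, 24, all of them interactions of Myc, Ppih, Csnk2a1-rs2 and Tas2r109, no longer passed it and 9 changed sign. The number of arrays limits the precision.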
